A study of Homo sapiens with 6 samples.

Results

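The control cells of this study are 22RV1 cells, an established human prostate cancer line that came from a xenograft which relapsed after castration of the host mouse. Of the 6 RNA-sequencing libraries, the 2 with the genotype NC were used here, called NC1 and NC2. Both were taken on day 2 from cells in serum-supplemented medium, and the labels do not describe what NC received. The other 4 libraries came from 22RV1 cells given MAGI2-AS3 (OE) or miR-106a-5p (mimics) and were not compared. Annotated genes were ranked by the mean of their values in NC1 and NC2, which gave 19974 genes of 24872 rows. The remaining 4898 rows were new genes without an annotated identity. Values are FPKM (fragments scaled by the length of the transcript and by the fragments mapped in the library), so levels of different genes are compared per length. Each pair of values is given as NC1 and then NC2, and each SD has n = 2. A single group was described, so no test was made.

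Luminal cells of the prostate line the glands and secrete proteases, citrate and zinc into the seminal fluid. Their program depends on androgen and on transcription factors such as FOXA1 and HOXB13. Basal cells lie beneath them and carry other keratins and the factor TP63. Castration-resistant cancer grows at low androgen, and some of these tumours take on a neuroendocrine program.

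The prostate luminal markers KLK3 and HOXB13 were looked at first. HOXB13 (ENSG00000159184, GRCh38 chromosome 17, 48724763 to 48729178, minus strand), the homeobox factor of prostate and distal gut, was 83 and 93.7 FPKM, a mean of 88.3 ± 7.59 (SD), at rank 726. KLK3 (ENSG00000142515, chromosome 19, 50854915 to 50860764, plus strand), which encodes prostate-specific antigen, was 12.7 and 12.8 FPKM, a mean of 12.7 ± 0.0491, at rank 5513. Both markers were thus present in both libraries, with HOXB13 at 6.54 and 7.34 times the level of KLK3. Among leukocyte and endothelial markers, PTPRC, CD3E and CDH5 were listed at 0 in both. The others were low but not at 0 in both: CD14 (0.127 and 0.226), LYZ (0.0848 and 0.047), VWF (0.0402 and 0.0438) and PECAM1 (0.00702 and 0).

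The libraries summed to 404156 and 419496 FPKM over all rows. Each fragment was worth a step in FPKM that put their depth at about 20800000 and 22400000 fragments, an approximate figure from 15 single-exon genes in each. Of the annotated genes, 11375 (56.9%) reached 1 FPKM in both libraries, the level called expressed here. A further 3790 (19.0%) were listed at 0 in both. The median gene was at 2.84 FPKM, and the median among expressed genes was 12.1. Means of at least 10 FPKM were held by 6400 genes, and of at least 100 by 629.

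Abundance was concentrated in translation, energy and cytoskeletal genes. MT-CO1, a mitochondrially encoded subunit of cytochrome c oxidase, led with 8653 and 8502 FPKM. Among the 30 highest genes, 11 were mitochondrially encoded, 13 were ribosomal protein genes and 6 were others. The others were EEF1A1, which carries aminoacyl-tRNA to the ribosome (2705 and 3724), the glycolytic enzyme GAPDH (2023 and 2341), TMSB10, which binds actin monomers (1766 and 1914), the actins ACTG1 (1491 and 1721) and ACTB (1345 and 1514), and the tubulin TUBA1B (1379 and 1514). These 30 genes held 16.8% and 16.7% of the annotated FPKM sum. All 79 ribosomal protein genes together held 13.3% and 14.2%, and the 13 mitochondrially encoded genes 9.30% and 8.42%. The 538 highest genes made up 50% of the mean sum and 5152 genes made up 90%.

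**Figure D1:**
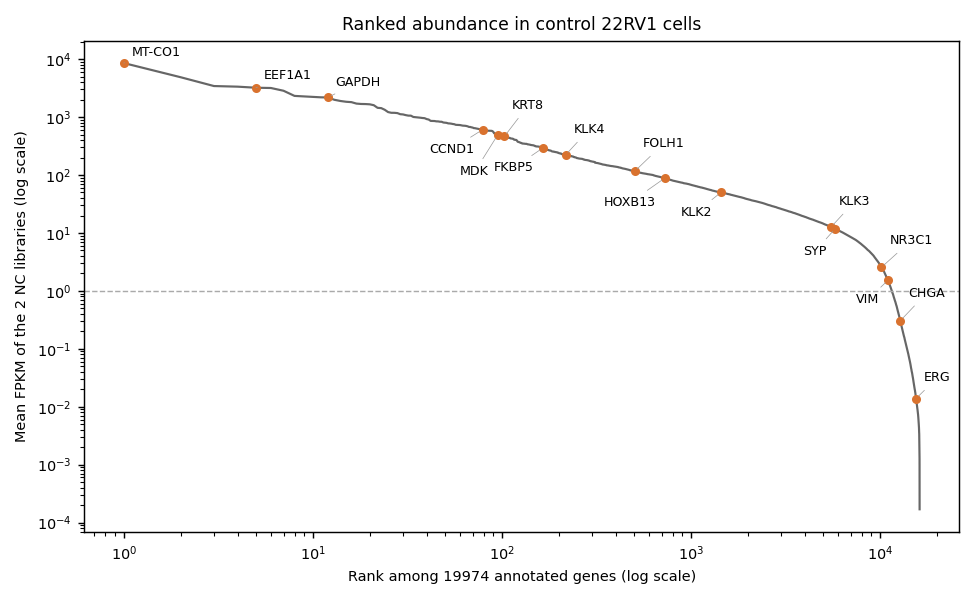
Mean FPKM of NC1 and NC2 against rank among 19974 annotated genes, both on log axes, with named genes as points and a dashed line at 1 FPKM. CCND1 (rank 79) and KRT8 (rank 103) lie among the highest genes, KLK3 at rank 5513, and CHGA and ERG fall under the line.

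Prostate luminal products were expressed unevenly. Of 30, 18 reached 1 FPKM in both libraries, a share close to the 56.9% of all annotated genes, and 16 reached 10. Their median was 12.7 FPKM. The simple-epithelial keratin KRT8 led with 434 and 493, and its partner KRT18 was 192 and 223. FKBP5, an androgen-induced co-chaperone of steroid receptors, was 298 and 283. FOLH1, the prostate-specific membrane antigen (GRCh38 chromosome 11, 49146635 to 49208670, minus strand), was 116 and 117, a mean of 116 ± 0.746 (SD) and 9.11 and 9.15 times the level of KLK3. STEAP1, a six-transmembrane prostate antigen, was 118 and 110.2, and PMEPA1, an androgen-induced regulator of TGF-beta signalling, was 96.8 and 105. Lower levels were held by the transporter SLC45A3 (27.4 and 31.5), the secreted AZGP1 (17.7 and 20) and the membrane protease TMPRSS2 (16.8 and 19.4). AMACR, a racemase of branched fatty acids used as a cancer marker, was only 3.65 and 3.92, and its exons overlap those of C1QTNF3-AMACR.

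Other members of the list lay near or under 1 FPKM. ACPP, prostatic acid phosphatase, lay at the threshold with 1.0 and 0.968. PSCA was 0.661 and 1.12, on either side of it. MSMB, a major seminal protein, the cold-sensing channel TRPM8 and SEMG1, a semenogelin, were listed at 0 in both libraries. NPY (0.0623 and 0) and PLA2G2A (0 and 0.0646) were close to absent, and each was listed at 0 in 1 library. In RNA from whole cultures, fewer cells of a type and less RNA per cell cannot be told apart.

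The kallikreins are serine proteases encoded side by side on chromosome 19, and KLK2, KLK3 and KLK4 are among those known from prostate. KLK4 (chromosome 19, 50906352 to 50910738, minus strand) stood highest of the 15 with 213 and 230.5 FPKM, 16.8 and 18.1 times KLK3. KLK2 (chromosome 19, 50861568 to 50880567, plus strand) was 51.4 and 48.6, 4.05 and 3.81 times KLK3. KLK1 followed with 7.22 and 8.14. KLK15 (1.05 and 2.12) and KLK11 (1.1 and 1.09) lay at or just over 1 FPKM, and in KLK15 the libraries differed by 0.75 on the log2(FPKM + 0.5) scale. The remaining 9 were under 1 FPKM in both, and KLK5, KLK6, KLK9 and KLK12 were listed at 0. Expressed members were thus 6 of 15, against 56.9% of all annotated genes, with KLK4, KLK2 and KLK3 on top in both libraries.

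KLK2 and KLK3 are close paralogs that differed about 4-fold in level, so the 250 bases before each RefSeq start (GRCh38.p14, plus strand) are shown side by side. They were chosen after their values were seen, and 22 of the 30 luminal products had an entry in the promoter table used. KLK3 is chr19:50854665-50854914 and KLK2 is chr19:50873189-50873438, whose start lies inside the longer GENCODE gene. Capitals mark a hexamer of the steroid receptor half-site type (AGAACA in KLK3, GGAACA in KLK2) and TTTATA, the reverse complement of TATAAA.
KLK3: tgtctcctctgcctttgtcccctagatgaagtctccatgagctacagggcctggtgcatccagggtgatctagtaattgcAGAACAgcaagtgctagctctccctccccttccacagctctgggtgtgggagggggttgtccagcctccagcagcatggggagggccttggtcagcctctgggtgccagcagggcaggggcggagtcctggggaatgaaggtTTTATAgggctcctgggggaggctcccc
KLK2: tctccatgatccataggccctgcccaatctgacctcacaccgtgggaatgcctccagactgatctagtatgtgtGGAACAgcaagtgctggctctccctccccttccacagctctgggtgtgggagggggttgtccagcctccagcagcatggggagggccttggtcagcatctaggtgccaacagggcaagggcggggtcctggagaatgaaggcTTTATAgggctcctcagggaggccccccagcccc
The stretches were identical at 205 of 259 aligned columns (79.2%). The half-site hexamer began 170 bases before the start in KLK3 and 176 in KLK2, and the TATAAA match 28 and 34 bases before it. On either strand, AGAACA occurred in 12.4%, GGAACA in 11.6% and TATAAA in 10.7% of 35116 promoters of 250 bases, so single matches are common. The hexamers were picked after reading the sequences and do not overlap each other.

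Luminal transcription factors were expressed more completely than the products: 15 of 17 reached 1 FPKM in both libraries, against 56.9% of all annotated genes. Of these, 13 reached 10, and the list median was 26.4 FPKM against 2.84 over all annotated genes. FOXA1, a pioneer factor that opens chromatin (chromosome 14, 37589984 to 37596059, minus strand), was 123 and 129.9. SPDEF, an ETS factor of secretory epithelium, was 60.1 and 67.9, and GATA2, a zinc-finger factor, was 49.7 and 49.8. CREB3L4, GRHL2, EHF and ELF3 ranged from 22.8 to 41.3 FPKM over both libraries. ONECUT2 was 6.94 and 5.23. GATA3 was 0.186 and 0.0848, and PROX1 was listed at 0.

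The ETS genes that are often fused in prostate cancer were low. ETV4 was 5.15 and 5.79, ETV5 3.66 and 3.99 and ETV1 1.82 and 2.1 FPKM. ERG, the usual partner of TMPRSS2 in fusions, was 0.0276 and 0, and FLI1 was listed at 0. A gene-level value does not show whether a fusion is present.

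HOX genes, which mark position along the body axis, were expressed from the B and C clusters more than from A and D. Of 39 genes, 14 reached 1 FPKM in both libraries, against 56.9% of all annotated genes. They were 7 of 10 in cluster B, 5 of 9 in C, 2 of 11 in A and 0 of 9 in D. After HOXB13 came HOXB6 (54.3 and 50.4), HOXB9 (27.3 and 29.6) and HOXB5 (22.1 and 18.3). In cluster C, HOXC10 led with 9.37 and 9.15, followed by HOXC6 (7.11 and 7.37), HOXC13 (6.24 and 7.07) and HOXC12 (6.52 and 6.67). Cluster A was led by HOXA5 (2.82 and 2.8). The highest of cluster D was HOXD9 with 0.0652 and 0.0843, and 7 of its genes were listed at 0. HOXB6 and HOXB3, and HOXC6, HOXC9 and HOXC4, share exons in the annotation, so how fragments were split among them is uncertain.

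Basal markers were low. DST, a cytoskeletal linker with a basal isoform, was the only member of 12 over 1 FPKM in both libraries, against 56.9% of all annotated genes. Its level was 4.36 and 2.63, and it was expressed more in NC1. TP63, KRT5 and KRT17 were listed at 0, and KRT14 was 0.0114 and 0.0768. KRT15 (1.15 and 0.959), LAMB3 (0.881 and 1.04) and S100A2 (0.646 and 0.975) lay near the threshold. Among 24 keratins, 4 reached 1 FPKM in both, against the same 56.9%. They were KRT8, KRT19 (329 and 371), KRT18 and KRT10 (7.02 and 7.47). KRT8 stood at 2.26 and 2.21 times KRT18, and 10 keratins were listed at 0.

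Neuroendocrine genes were expressed in part. Of 20, 6 reached 1 FPKM in both libraries, a share of 30% against 56.9% overall. SYP, a synaptic vesicle protein, was 11 and 12.6, ENO2, a neuronal enolase that other cells also make, was 7.28 and 8.59, and SCG3, a granin of secretory granules, was 7.79 and 5.97. SNAP25 (3.82 and 4.38), CHGB (3.1 and 2.48) and the Notch ligand DLL3 (1.09 and 1.16) were the others. CHGA, the usual clinical marker, was 0.198 and 0.413. Of the factors in this list that drive the state, NEUROD1 and FOXA2 were listed at 0. INSM1 was 0.0169 and 0 and SOX2 0.0381 and 0.0401. ONECUT2, at 6.94 and 5.23, was counted with the luminal factors and not in this list.

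Epithelial junction genes were expressed in 16 of 20 cases, against 56.9% of all annotated genes, with a median of 13.2 FPKM. CDH1, E-cadherin, was 89.4 and 95.7, CLDN7 149 and 164 and the splicing regulator ESRP1 39.2 and 39. EPCAM was lower at 10.5 and 11.1. MUC1 was 0.0441 and 0.0502 and RAB25 0 and 0.0723. Of 18 mesenchymal genes, 7 reached 1 FPKM in both, against the same 56.9%. The level of VIM, the intermediate filament of mesenchymal cells, was 1.56 and 1.48, and that of CDH1 was 57.1 and 64.5 times as high. The repressors ZEB1 (0 and 0.00714) and ZEB2 (0.108 and 0.022) and N-cadherin, CDH2 (0.0472 and 0.0251), were near 0, and MMP2 was listed at 0.

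A few mesenchymal genes were high against this background. FN1, fibronectin, was 215 and 223, at 137 and 149.9 times VIM. LUM, a collagen-binding proteoglycan of stroma, was 86 and 82.1, and SNAI2, a zinc-finger repressor of epithelial genes, was 30.6 and 30.1. TWIST1 was 4.03 and 3.93 and DCN 2.62 and 3.01. The other fibroblast and muscle markers COL1A1 (0.682 and 0.521), ACTA2 (0.97 and 1.18) and MYH11 (0.188 and 0.145) lay at or under 1 FPKM in at least 1 library.

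Markers of other cell types were low in all but 2 of 18 genes, whereas 56.9% of all annotated genes reached 1 FPKM in both libraries. ALB, serum albumin of liver (chromosome 4, 73397114 to 73421412, plus strand), was 41.2 and 44.1, a mean of 42.7 ± 2.07 (SD), whereas APOA1, another liver product, was 0.672 and 0.672. VIL1, a brush-border actin bundler, was 11.4 and 12.2, whereas the intestinal factor CDX2 was listed at 0. The lung factor NKX2-1 (0.287 and 0.436), urothelial UPK2 (0.148 and 0.298) and myeloid CD14 (0.127 and 0.226) were under 0.5 FPKM, and SFTPC of lung was listed at 0.

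**Figure D2:**
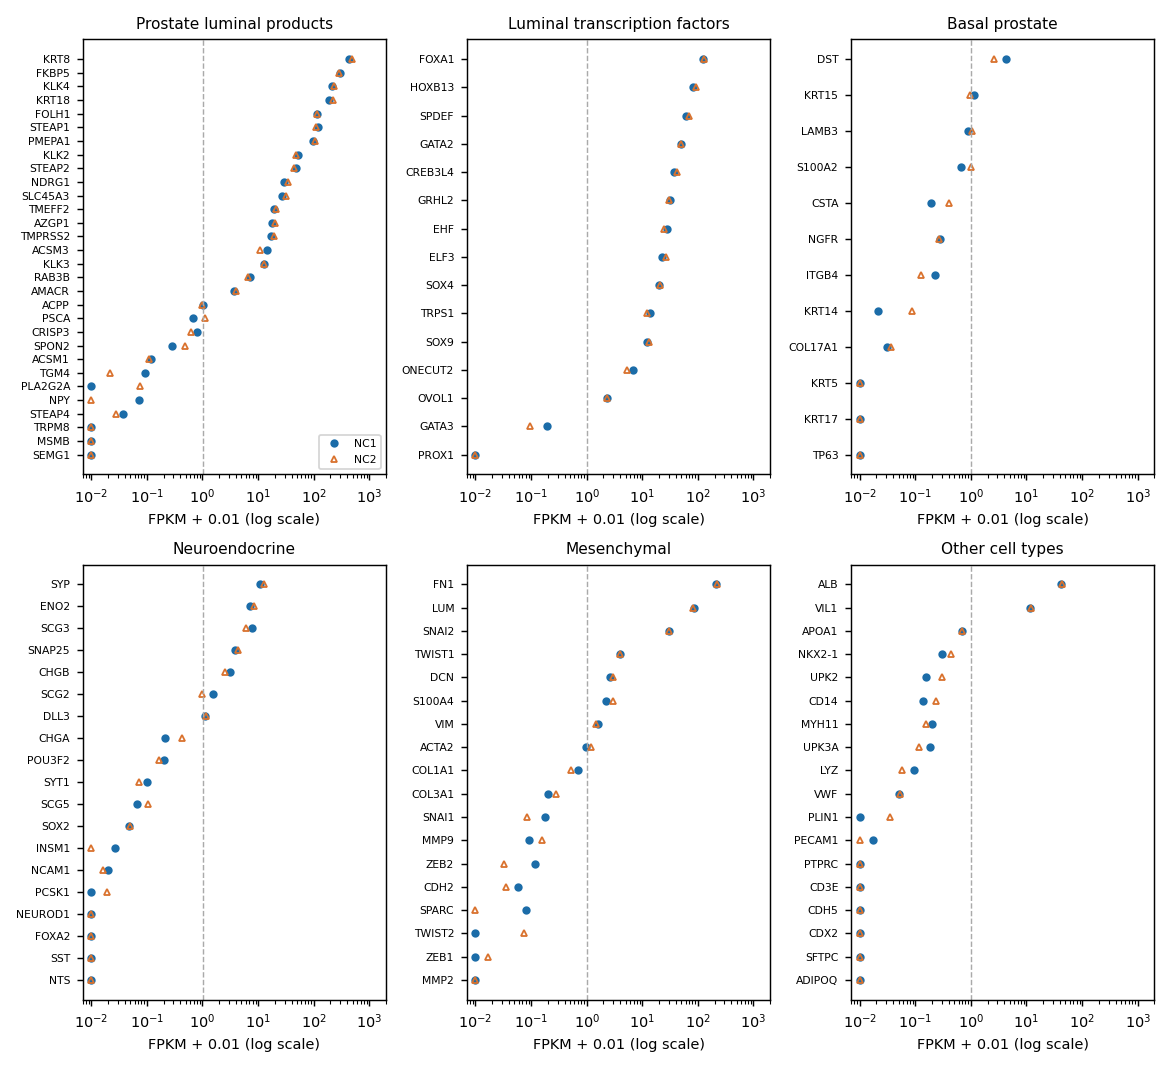
Genes of 6 lineage lists with their FPKM plus 0.01 on a log axis in NC1 (filled circles) and NC2 (open triangles), with a dashed line at 1 FPKM and points at the left edge for genes listed at 0. Luminal factors cluster to the right of the line, basal genes to its left, and FN1, LUM, SNAI2, ALB and VIL1 stand apart from the rest of their lists.

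Nuclear receptors are transcription factors switched by steroids, retinoids, lipids or thyroid hormone. Of 48, 27 reached 1 FPKM in both libraries, close to the share of all genes, and 11 reached 10 in both. Among the highest were ESRRA, an orphan receptor of mitochondrial genes (59.5 and 61.4), NR2F6 (39.1 and 42.9) and NR2C2 (28.1 and 20). Also expressed were the liver X receptor NR1H2 (21 and 23.8) and the retinoid receptors RXRB (15.5 and 16.5) and RARG (11.6 and 14.3). NR3C1, the glucocorticoid receptor, was 2.59 and 2.52. NR3C2, the mineralocorticoid receptor, was 3.0 and 3.1 and VDR 4.58 and 4.32. ESR1 was 0 and 0.0179, ESR2 0.48 and 0.288, and PGR and PPARG were listed at 0.

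Of 58 receptor tyrosine kinases, 25 (43.1%) reached 1 FPKM in both libraries, against 56.9% of all annotated genes, 31 were under it in both, and 11 were listed at 0. EGFR, the epidermal growth factor receptor (chromosome 7, 55019021 to 55211628, plus strand), was highest with 82.6 and 78.5, a mean of 80.6 ± 2.9 (SD). DDR1, a collagen receptor, was 67.9 and 73, and the ephrin receptor EPHA3 was 63.6 and 58.4. The EGFR relatives ERBB3 (25.1 and 26.4) and ERBB2 (22.2 and 24.7) were also expressed, while ERBB4 was 0.318 and 0.313. EGFR was 3.73 and 3.17 times ERBB2. FGFR3 was 24.5 and 24.1 and FGFR1 4.92 and 5.05, whereas FGFR2 was listed at 0. IGF1R (8.1 and 8.23) and INSR (5.6 and 5.33) were moderate. MET, the receptor of HGF, was 1.48 and 1.31, and AXL was 0.00883 and 0. KIT, ALK, ROS1, FLT3 and KDR were listed at 0, and PDGFRA and PDGFRB stayed under 0.1 FPKM.

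Most receptors of cytokines, TGF-beta, WNT and NOTCH signals were present at modest levels. Of 42, 35 reached 1 FPKM in both libraries, against 56.9% of all annotated genes, and the median was 4.34 FPKM. Death receptors led, with TNFRSF10B at 33.1 and 33.8 and TNFRSF1A at 30.2 and 33.5. The WNT receptors FZD5 (18.4 and 18.1) and FZD6 (18.4 and 15.1) and the interferon receptor chains IFNGR2 (13.1 and 16.1) and IFNAR1 (14.9 and 12.3) were also expressed. IL6R was 10.7 and 10.5 and its signalling chain IL6ST 6.27 and 5.34. TGFBR2, the chain that binds TGF-beta, was 0.902 and 0.825, while its partner TGFBR1 was 3.65 and 3.37. NOTCH1 (5.98 and 6.47) and NOTCH2 (4.89 and 5.17) were expressed, whereas NOTCH3 (0.102 and 0.0696) and NOTCH4 (0.0818 and 0.0664) were near 0.

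Of 20 antigens aimed at by antibodies or radioligands in cancer, 11 reached 1 FPKM in both libraries, close to the 56.9% of all annotated genes. This list also holds KDM1A, a nuclear demethylase and no surface protein (37.5 and 38.8). Beside FOLH1 and STEAP1, the complement regulator CD46 was 96 and 84.8, F3, tissue factor, 38.9 and 39.1, and CD276 19.5 and 20. CEACAM5, GRPR and MSLN were listed at 0, and NECTIN4 was 0.0934 and 0.0631. DLL3, a target in neuroendocrine cancer, was 1.09 and 1.16, and SSTR2 was 0.389 and 0.38.

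**Figure D3:**
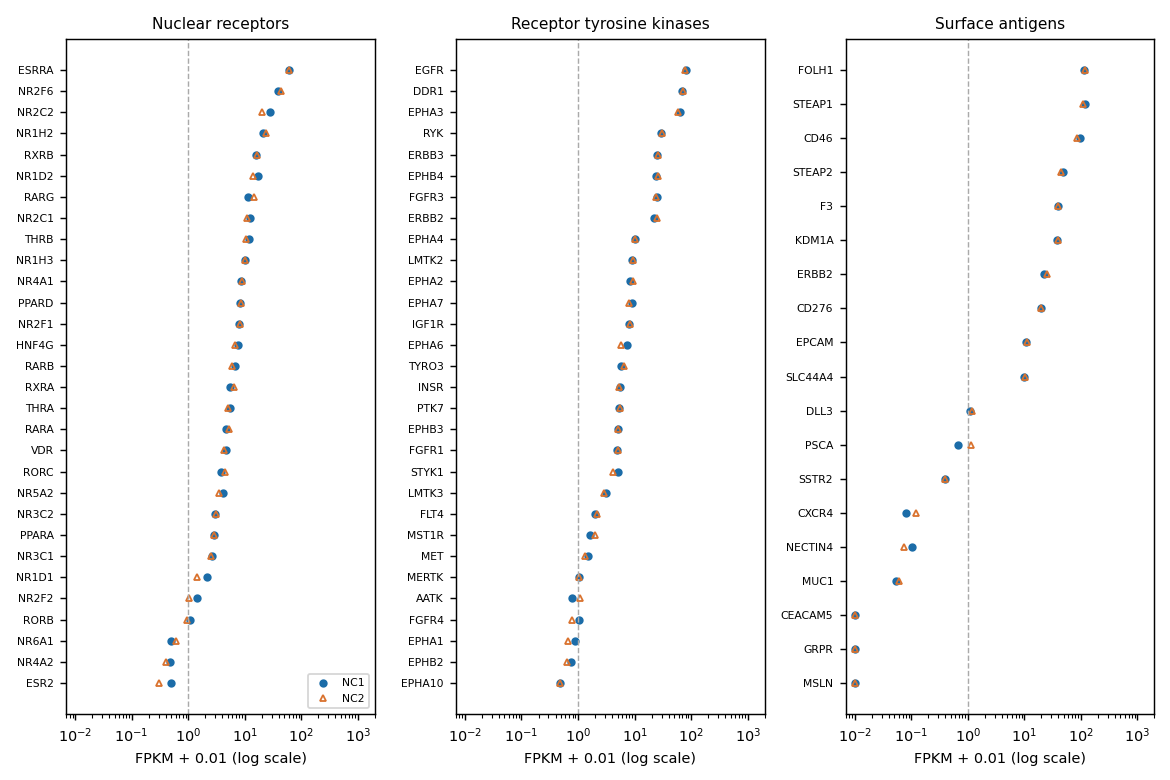
Nuclear receptors and receptor tyrosine kinases of higher level, and drug-target antigens, each with FPKM plus 0.01 on a log axis in NC1 (filled circles) and NC2 (open triangles), and a dashed line at 1 FPKM. EGFR heads the kinases, and CEACAM5, GRPR and MSLN at the left edge are listed at 0.

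Secreted growth factors were dominated by a single gene. MDK, the heparin-binding factor midkine, was 468 and 518 FPKM, 414 and 415 times its only relative PTN (1.13 and 1.25). Of 45 genes, 19 reached 1 FPKM in both libraries (42.2%, against 56.9% of all genes) and 7 reached 10. The EGFR ligand HBEGF was 157 and 166, whereas the other ligands TGFA (0.805 and 0.838), AREG (0.126 and 0.0426) and EGF (0.223 and 0.171) were under 1 and EREG was listed at 0. IGFBP2, which binds insulin-like growth factors, was 54.4 and 63.3 and the stress-induced GDF15 was 48.1 and 54. VEGFA was 24.5 and 23.8. HGF, a ligand more usual for stromal cells, was 8.81 and 6.88, beside MET at 1.48 and 1.31. FGF13, an intracellular relative of the fibroblast growth factors, was 4.42 and 8.75. NRG1, FGF8 and SFRP1 were listed at 0.

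Cytokines and chemokines were mostly under 1 FPKM. Of 26, 4 reached 1 FPKM in both libraries (15.4%, against 56.9% of all genes) and 12 were listed at 0. MIF, an inhibitor of macrophage migration that most cells make, was 387 and 424, and it shares exons with AP000350.4. CXCL16 was 15.7 and 16.2, CX3CL1 1.87 and 2.03 and CSF1 1.26 and 1.27. IL6 was 0.0287 and 0, and CXCL8, CCL2, CXCL1 and CXCL12 were listed at 0.

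In a list of metalloproteases, plasminogen activators, cathepsins and inhibitors, 14 of 30 reached 1 FPKM in both libraries, against 56.9% of all annotated genes. Members of higher level were SPINT2 (143 and 164), a membrane-bound inhibitor like SPINT1 (51.5 and 56.5), TIMP1 (84.4 and 92.1), which inhibits metalloproteases, CST3 (52 and 58.4), an inhibitor of cysteine proteases, and the lysosomal proteases CTSD (65.5 and 73.5) and CTSB (40.8 and 45.6). MMP15 (7.07 and 8.43) and MMP16 (5.85 and 4.61), both membrane-anchored, were the highest metalloproteases. MMP2, MMP3, MMP7, MMP13 and the plasminogen activator PLAU were listed at 0, while its receptor PLAUR was 2.66 and 2.87.

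The machinery for secretion was abundant. Of 29 chaperones, translocon subunits and glycan enzymes, 25 reached 1 FPKM in both libraries, against 56.9% of all annotated genes. Of these, 23 reached 10, and the list median was 76.3 FPKM. The calcium-binding chaperone CALR was 668 and 773, HSP90B1 597 and 516, and HSPA5, the sensor chaperone of the endoplasmic reticulum, 254 and 281. UAP1, a sugar-nucleotide enzyme raised by androgen, was 46.1 and 44.9. XBP1, a factor of secretory cells, was 64.2 and 61. The mucosal secretory genes AGR3 and TFF1 were listed at 0, and TFF3 was 0.0789 and 0.0688.

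Of 29 genes for making or inactivating androgens, 12 reached 1 FPKM in both libraries (41.4%, against 56.9% of all genes). HSD17B10, a mitochondrial dehydrogenase, was 108 and 122 and HSD17B4, of peroxisomal fat oxidation, 78 and 66.6. Of the SRD5A genes, SRD5A3 was 13.6 and 13.7 and SRD5A1, a reductase of testosterone, 5.4 and 6.03. SRD5A2, the form of the normal prostate, was listed at 0. CYP17A1, needed for androgens from cholesterol, and CYP19A1, aromatase, were also listed at 0. HSD3B1 was 0 and 0.0267 and HSD17B3 0 and 0.0478. AKR1C3, which makes testosterone from androstenedione, lay at the threshold with 0.97 and 1.04, and AKR1C2, which inactivates dihydrotestosterone, was 11.8 and 13.3, or 12.2 and 12.9 times AKR1C3. These AKR1C genes are close paralogs, so how fragments were assigned to each is uncertain. The glucuronidating enzymes in this list were low, namely UGT2B15 (0.599 and 0.358), UGT2B7 (0 and 0.0826) and UGT2B17 (0 and 0.0376).

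Glycolysis was expressed through 25 of 30 genes in both libraries, against 56.9% of all annotated genes, with a median of 30.8 FPKM. After GAPDH came TPI1 (802 and 918), ENO1 (674 and 789), LDHB (627 and 647), ALDOA (530.0 and 633) and LDHA (390.4 and 563). LDHB was 1.61 and 1.15 times LDHA. The glucose transporter SLC2A1 was 16.9 and 20, and SLC2A3 0.0253 and 0.0211. HK1 was 60.6 and 69.1 and HK2 27.2 and 28.7. The liver or testis forms PKLR and LDHC were listed at 0.

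Of 28 genes for citrate and the TCA cycle, 27 reached 1 FPKM in both libraries, against 56.9% of all annotated genes. Of these, 26 reached 10 in both, and the list median was 68.5 FPKM. CS, citrate synthase, was 209.8 and 234, MDH2 200.1 and 231 and FH 162 and 176. SLC39A1, a zinc importer of prostate epithelium, was 95.6 and 108. SLC25A1, which exports citrate from mitochondria, was 99.7 and 107. ME1, the cytosolic malic enzyme, was 0.805 and 0.923 and the only member under 1.

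Lipid genes were expressed broadly. Of 31 genes for fatty acid synthesis and handling, 26 reached 1 FPKM in both libraries, against 56.9% of all annotated genes. The list median was 23.4 FPKM. Genes of fatty acid oxidation count among the 26, such as DECR1 (44.6 and 43.9), CPT1A (27.3 and 28.7) and CPT2 (23.2 and 27.1). FASN, fatty acid synthase, was 171 and 182, its regulator SREBF1 165 and 174, ACLY, which makes acetyl-CoA from citrate, 119 and 126, and SCD, a desaturase, 114 and 122. ELOVL5 was 147 and 148. Proteins for fatty acid uptake and binding were mixed. CD36 was 0.15 and 0.0728 and FABP4 was listed at 0, whereas FABP5 was 33.1 and 30.7 and FABP3 2.01 and 1.86. All 23 genes for sterol synthesis and uptake were over 9 FPKM in both libraries, with a median of 41.9. They ranged from HSD17B7 (9.46 and 9.15) to FDPS, which makes farnesyl diphosphate (202 and 215). SQLE, which epoxidises squalene, was 21.5 and 23.1 and the regulator SREBF2 70.1 and 77.7.

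Polyamine, nucleotide and one-carbon enzymes were likewise nearly complete, with 29 of 30 at 1 FPKM in both libraries, against 56.9% of all annotated genes. Their median was 60.5 FPKM. Prostate is known for its output of polyamines. ODC1, the first enzyme of their synthesis, was 198 and 229, its regulator OAZ1 463 and 507, and AMD1 203 and 187. IMPDH2, of guanine nucleotide synthesis, was 324 and 358 and TYMS 138 and 145. ASS1, of arginine synthesis, was 1.53 and 1.49, and ARG1 was 0.118 and 0.21.

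Metal and redox genes were set beside all annotated genes, of which 56.9% reached 1 FPKM and 19.0% were at 0 in both libraries. Of 23 metal genes, 15 reached 1 FPKM in both, not far from that share. Iron storage was led by the ferritin chains FTH1 (680.0 and 746) and FTL (315 and 343), and the zinc transporter SLC39A6 was 143 and 135. Among the metallothioneins MT2A was 22.6 and 28, while MT1H and MT1M were listed at 0. Of 24 detoxification genes, 17 reached 1 FPKM in both, against the same 56.9%. GPX4, which reduces lipid peroxides, was 611 and 680.3 and PRDX1 239.6 and 269.8. GSTP1, a glutathione transferase often silenced by methylation in prostate cancer, was listed at 0 in both libraries. GSTM1 was 0.71 and 4.62, but it shares exons with GSTM2 (57.7 and 53.6), so its level is uncertain.

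Oncogenes were mostly expressed, 35 of 40 in both libraries against 56.9% of all annotated genes, with a median of 14.1 FPKM. CCND1, the cyclin that pairs with CDK4 at the start of the cell cycle (chromosome 11, 69641087 to 69654474, plus strand), was highest with 601 and 612, a mean of 606 ± 8.01 (SD) at rank 79. It was 20.8 and 20.4 times CCND3 (28.9 and 30), while CCND2 was listed at 0. CDK4 was 122 and 137, 112 and 158 times CDK6 (1.09 and 0.866). MYC was 92.2 and 97.9, 44.8 and 43.2 times MYCL (2.06 and 2.27), and MYCN was 0 and 0.0316. CTNNB1, beta-catenin, was 149.8 and 162, the methyltransferase EZH2 39.2 and 33.4 and the survival factor MCL1 115 and 114. Of the survival factors of its family, BCL2L1 (20.4 and 23.6) stood over BCL2 (2.98 and 3.07). Of the catalytic subunits of PI3-kinase, PIK3CB (20.4 and 21.4) stood over PIK3CA (4.59 and 3.89). TERT, the telomerase reverse transcriptase, was 2.56 and 2.3. SPINK1, overexpressed in some prostate cancers without ETS fusions, was 0.561 and 0.491.

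Tumour suppressor and repair genes reached 1 FPKM in both libraries in 40 of 42 cases, against 56.9% of all annotated genes. Inhibitors of cyclin kinases led, namely CDKN1B (67 and 67.7), CDKN1A (59.9 and 68.4) and CDKN2A (49.7 and 50.4). The classical suppressor RB1 (18 and 16.2) was expressed, and so were the repair genes BRCA1 (23.8 and 18.8), BRCA2 (3.68 and 2.63) and CHEK2 (24.2 and 21.2). MGMT, which repairs alkylated guanine, was 0.0793 and 0.108, and CDH13, an adhesion gene often methylated in cancer, was listed at 0. Levels of RNA do not show whether these genes carry mutations.

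Proliferation genes were all expressed. Each of 30 mitosis and replication genes was over 1 FPKM in both libraries, against 56.9% of all annotated genes. Of these, 29 were over 10 in both, and the median was 79.1. PCNA, the replication clamp, was 219 and 229, the helicase subunit MCM7 203 and 222, CDC20, which activates anaphase, 169 and 189, and the ribonucleotide reductase subunit RRM2 134 and 147. MKI67 was 39 and 32.1. CENPE, a kinesin of the kinetochore, was lowest with 11.3 and 8.48.

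In a list of cancer-testis antigens, which are normally kept to germ cells, 14 of 31 genes were expressed, against 56.9% of all annotated genes. This list also holds the RNA-binding proteins IGF2BP1, IGF2BP2 and IGF2BP3, so it is wider than genes kept to germ cells. MAGEA4 (chromosome X, 151912509 to 151925170, plus strand) was 176 and 189.6, CTAG2 136 and 151 and CTAG1B 97.5 and 108. MAGEA3 was 73.8 and 80.5, MAGEA6 54 and 55.4 and SSX2 27.8 and 20.8. These belong to families of near-identical copies, so the split among paralogs is uncertain. PRAME was 12.9 and 15.1. IGF2BP3, an oncofetal RNA-binding protein, was 8.28 and 6.72 and IGF2BP2 was 4.45 and 4.62, and both count among the 14. Other members such as SSX1, PAGE2 and LIN28B were listed at 0, and 17 of 31 were under 1 FPKM in both libraries.

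Antigen presentation was uneven along its pathway. Of 32 genes for presentation and innate sensing, 13 reached 1 FPKM in both libraries, against 56.9% of all annotated genes. B2M, the light chain of class I molecules, was 240.3 and 255. HLA-C was 14.8 and 15.2, HLA-E was 17.2 and 20.8, and HLA-B was 2.43 and 3.19. These genes are highly polymorphic and similar, and HLA-B and HLA-C share exons in the annotation, so their levels are uncertain. The peptide transporter chains TAP1 (8.55 and 9.77) and TAP2 (8.29 and 8.45) were expressed. NLRC5, the activator of class I genes, was 0.0494 and 0.098, and the immunoproteasome subunit PSMB8 was 0.116 and 0. ISG15, an interferon-induced modifier, was 117 and 130.1, but MX1 was 0.462 and 0.36 and IFIT1 0.111 and 0.229. The DNA sensor CGAS was 0.0637 and 0.0115 and its adaptor TMEM173 (STING) was listed at 0. CD274, PD-L1, was 0.0667 and 0.0853.

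**Figure D4:**
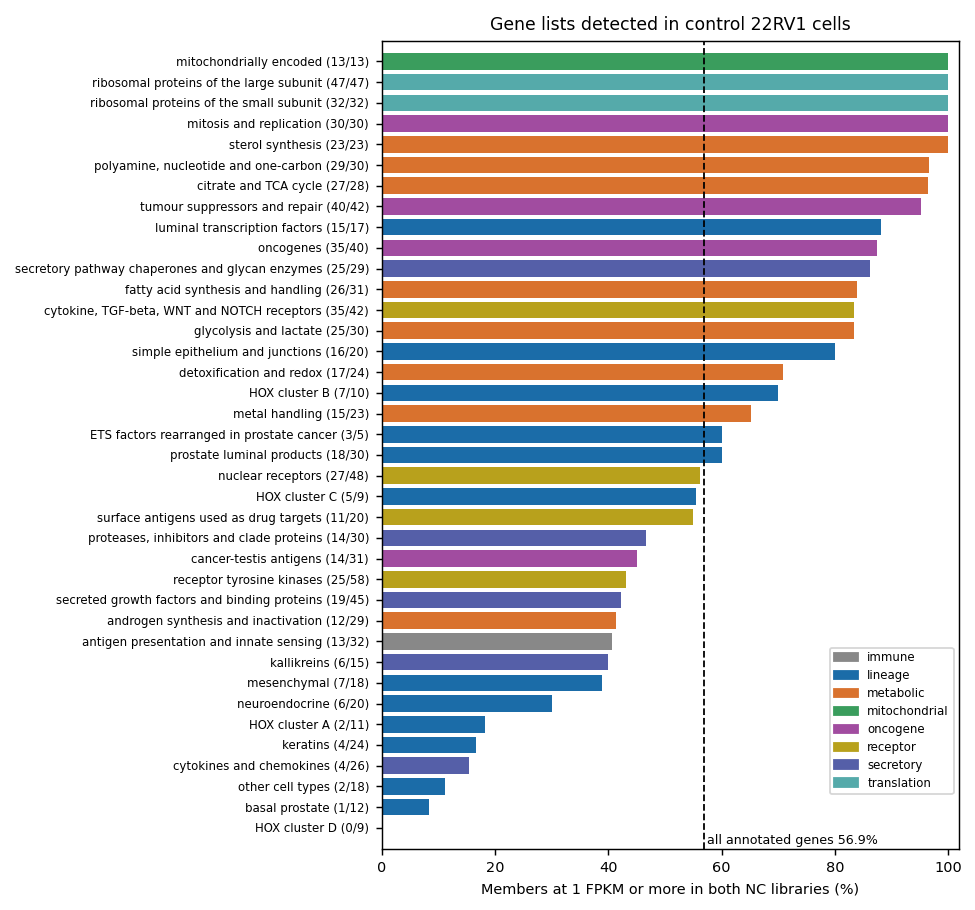
Share of each list's genes, in percent, at 1 FPKM or more in both NC libraries, with the counts in parentheses, colours for the programs and a dashed line at 56.9% for all annotated genes. Mitosis, sterol, ribosomal and mitochondrially encoded genes reach the whole list, while basal genes (1 of 12) and HOX cluster D (0 of 9) are at the bottom.

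NC1 and NC2 ranked genes almost alike. Over 12324 genes with a mean of at least 0.5 FPKM, their log2(FPKM + 0.5) values correlated with Pearson's r = 0.992 and Spearman's rho = 0.992, across genes that are not independent replicates. The median difference of NC2 less NC1 was 0.01 on this log2 scale and the median absolute difference 0.12. Only 61 genes (0.495%) differed over 2-fold, 27 higher in NC2 and 34 higher in NC1. Among genes at 0 in 1 library, 8 were at 1 FPKM or more in NC2 and 6 in NC1. By level, the median absolute difference lay between 0.11 and 0.17.

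Many of the largest differences lay in genes whose exons overlap another gene. Of 1461 genes that share an exon with another row, 50 (3.42%) differed over 2-fold, against 11 of 10863 without such overlap. Among the 20 most different genes with a mean of at least 5 FPKM, 13 shared exons, or 65% against 11.04% of 8665 such genes. SENP3-EIF4A1, a readthrough of neighbouring genes, was 88.8 and 2.04 FPKM (log2 difference -5.14), while SENP3 was 11.4 and 26.6 (1.19) and EIF4A1, a helicase of translation initiation, was 498 and 749. The readthrough was thus higher in NC1 and both of its components higher in NC2. TOMM6, a subunit of the mitochondrial import pore, was 108 and 7.9 (-3.69), and AL365205.1, which overlaps it, 8.63 and 31.2 (1.79). RASA4B was 11.7 and 0 (-4.61), and RPL36A-HNRNPH2, another readthrough, 0.857 and 14.4 (3.46). MATR3, a nuclear matrix protein, had a pair of rows at 44.4 and 69.7 and at 59.96 and 35.9, which added to 104 and 106. How the authors divided fragments among overlapping genes was not given in the sources used here, and its part in these differences was not tested.

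The other 7 of these 20 genes shared no exon with another annotated row on their strand. Similar copies elsewhere in the genome were not looked for. ATP5F1A, the alpha subunit of ATP synthase, was 484 and 213 (-1.19) and lies antisense to HAUS1 exons, and TBL3 was 13.8 and 28.6 (1.03) and lies antisense to NOXO1. AP1M1, of clathrin adaptors, was 14.8 and 5.83 (-1.28), and TMEM237, a ciliary protein, 19.2 and 8.6 (-1.12). NUDT4B was 8.07 and 16.6 (0.998), FGF13 4.42 and 8.75 (0.91) and SMIM11A 6.53 and 12.6 (0.90). With 1 library on each side, these differences have no replicate check.

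Small shifts followed the base composition and length of genes, properties examined after the values were seen. Over 8665 genes with a mean of at least 5 FPKM, the difference of NC2 less NC1 had a Spearman correlation of 0.555 with the GC content of the transcripts and of -0.326 with exon length. In the decile of lowest GC (32.0% to 39.8%) the median difference was -0.19 and 10.5% of genes were higher in NC2. In the highest decile (61.8% to 74.8%) it was 0.10, with 80.4% higher in NC2. The shortest decile (207 to 2142 bases) had a median of 0.10 and the longest (10219 to 44677 bases) of -0.08. GC and length were themselves related, at -0.240 across genes.

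Within programs, members with a mean of at least 0.5 FPKM were counted beside the 51.8% of all 12324 genes that were higher in NC2. Small-subunit ribosomal protein genes were higher in NC2 in 31 of 32 cases and large-subunit ones in 42 of 47, with a median difference of 0.13 in each. Glycolysis genes were higher in 23 of 25 cases (median 0.19) and TCA cycle genes in 25 of 28 (0.13). Mitochondrially encoded genes were higher in 1 of 13 (-0.09), and suppressor and repair genes in 15 of 40 (-0.08). The median GC content was 56.1% in the glycolysis list, 44.3% in the mitochondrially encoded genes and 47.1% in both the TCA and the suppressor lists. Its part in the direction of each list was not tested.

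**Figure D5:**
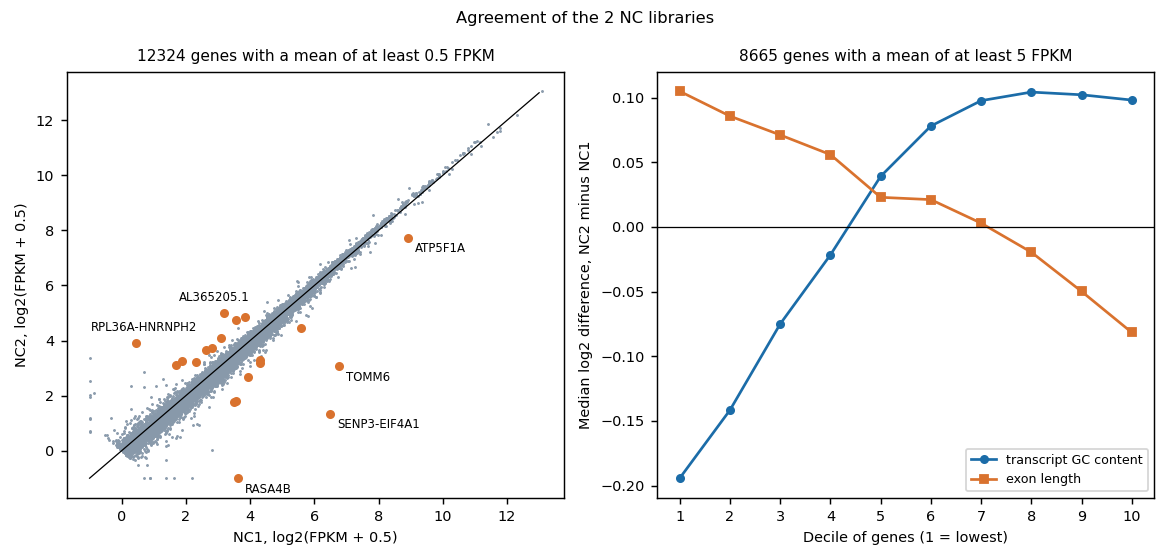
Left, log2(FPKM + 0.5) in NC2 against NC1 for 12324 genes, with the line of equality and the 20 most different genes as large points. Right, median difference of NC2 less NC1 on the same scale in deciles of GC content (circles) and exon length (squares) over 8665 genes: it rises from -0.19 to 0.10 with GC and falls from 0.10 to -0.08 with length.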

How the data were processed

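Total RNA of 22RV1 cells was sequenced as mRNA libraries, per the labels' protocols. The authors deposited FPKM values with 1 column per library. The submitters' processing notes name HISAT2 2.0.4 and GRCh38. Neither the counter nor its handling of strand was given in the sources used here. FPKM holds no counts and divides by each library's total, so an abundant gene shifts all others. Depth per library is therefore approximate. It was read from a recurring FPKM step within 0.3%. A smaller step at 0.5 of it also recurred, in 6 and 3 genes, so depth may be higher.

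Rows were matched by Ensembl gene ID to GENCODE 29 for coordinates, exon length, GC content and shared exons, with Python 3.11.15, pandas 2.3.3 and scipy 1.17.1. Of the matched rows 19922 were protein-coding and 52 of other kinds. Promoters came from RefSeq (GRCh38.p14) and were aligned with Biopython 1.88. Expression was called at 1 FPKM in both libraries. Agreement used log2(FPKM + 0.5) over genes with a mean of at least 0.5 FPKM, and the computation was tested on simulated data. Nothing in the labels says that NC1 and NC2 are separate cultures, so their spread may be technical.

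The 38 lists held 974 distinct genes, and 1 listed symbol was not analysed here. Named genes were the 30 highest, up to 6 of the highest and 4 of the lowest members of each list with usual prostate markers, and the 10 most different genes in each direction at a mean of at least 5 FPKM. Further list members were named after their values were seen, and so were all ratios between genes. Members and lists were chosen with earlier results of these data known. Some listed genes enter the counts but are not reported here by name. The 4 OE and mimics libraries were left out.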

Additional observations from a re-analysis of the deposited data

How the results depend on the processing

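No paired analysis was possible because a single group of 2 libraries was described and no groups were compared. The number of expressed genes, 11375, ranged from 10441 at a threshold of 2 FPKM to 12324 with libraries rescaled to an equal sum of 1000000. It was 11483 or 11553 in 1 library alone. The annotated sums were 397272 and 413025 FPKM before rescaling, so rescaling raised every value above 0 while the threshold stayed at 1. For this count and the list counts below, rescaling therefore acts as a looser threshold. The correlation of r = 0.992 became 0.988 with a pseudocount of 0.1, 0.993 with a pseudocount of 1, 0.997 with no filter and 0.990 over genes with a mean of at least 5 FPKM. The 61 genes over 2-fold became 17 at a mean of at least 5 FPKM, 92 with a pseudocount of 0.1 and 42 with a pseudocount of 1. They were 60 after scaling to a median ratio of 1. Alternatives chosen after seeing the data gave 11 without genes that share exons, 61 after subtracting the median of each length decile and 56 after subtracting that of each GC decile. The causes were not tested. The share of the 30 highest genes was 16.5% over all rows against 16.7%, and 16.7% to 16.8% by library. Ribosomal protein genes held 13.3% to 14.2% and mitochondrially encoded genes 8.42% to 9.30% by library. List counts moved by over 1.5 times in few lists. Basal genes went from 1 to 4 at 0.5 FPKM and 4 after rescaling, HOX cluster A from 2 to 4 and 5, and to 1 at 2 FPKM, HOX cluster C from 5 to 8 and 9, and cytokines from 4 to 2 at 2 FPKM. The other 35, 36 and 35 of 38 lists stayed within 1.5 times at 0.5 FPKM, 2 FPKM and after rescaling. Of the means of 979 listed or top genes, all stayed within 1 SD in either library alone, which holds by construction with n = 2, and 867 moved past it after rescaling, a change of unit. FPKM holds no counts, so the depth behind each value and its counting error were not computed.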

Other observations

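Among genes outside the lists, chosen after their values were seen, several stood near the top of the ranking beside translation and cytoskeletal genes. CKB, the brain-type creatine kinase that buffers ATP, was 553 and 608 FPKM at rank 87. ALDH3A2, which oxidises fatty aldehydes, was 406 and 403 at rank 118. CLU, the secreted chaperone clusterin, was 362 and 426 at rank 120. CHPT1, of phosphatidylcholine synthesis, was 321 and 340.1 at rank 142. RGS2, a regulator of G-protein signalling, was 331 and 321 at rank 146. PHLDA2, an imprinted gene best known from placenta, was 301 and 339.7 at rank 149. CHPT1 lies antisense to exons of SYCP3.

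The new gene rows held 1.70% and 1.54% of the FPKM sum, and 853 of 4898 reached 1 FPKM in both libraries. The highest were 373 and 455 FPKM, and 358 and 428 FPKM.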
